A study of Mus musculus with 4 samples.

Results

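The genes described here are named for the proteins of the mitochondrial ribosome, the machine that translates the few messages made from mitochondrial DNA. They were taken as all rows whose gene symbol starts with Mrpl or Mrps followed by a number and at most 1 letter, which gave 78 genes of the 54838 listed in each file. RNA was sequenced from 4 samples of Hepa1-6, an established mouse hepatocellular carcinoma cell line. The comparison was between a pair of genotypes: NC, wild type for Acvr2a (samples NC 1 and NC 2), and KO, knocked out for Acvr2a, a type II receptor for activins (samples KO 1 and KO 2). No treatment, time point or other allele is named for any sample. The design text speaks of knockout subclones, and the sources used here do not say whether KO 1 and KO 2 are separate subclones or repeat cultures of 1 subclone. With 2 samples in each group, p-values measure only the spread between these samples, which may be technical or that of a clone, and the effect of the deletion cannot be told apart from that of picking a subclone.

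Mitochondrial ribosomes are built from a small subunit, which reads the message, and a large subunit, which joins the amino acids. Their rRNAs come from mitochondrial DNA, while every protein is made from a nuclear gene, translated in the cytosol and imported. Part of these proteins descend from the bacterial ribosome, and part were added later and have no counterpart in bacteria. All of their products in mammalian cells are membrane-embedded core subunits of the respiratory chain and the ATP synthase, so hepatocytes and hepatoma cells rely on these ribosomes for oxidative phosphorylation.

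Library totals lay between 11597923 and 13910582 counts. The members had between 45 and 1828 counts in a library, with a median of 414, and together took 0.273 to 0.353% of a library's counts. Acvr2a itself had 81 and 108 counts in NC against 75 and 97 in KO, values that overlap (log2 fold change −0.21, SE 0.20, edgeR adjusted p = 0.433), so the targeted gene's RNA level does not separate the labelled genotypes; gene-level counts do not show whether its reading frame is cut. Summed levels of 8 hepatocyte markers were 2578 and 2469 TPM (transcripts scaled to length and library) in NC against 2981 and 2836 in KO. Afp and Hnf4a were called lower in KO, and Alb and Trf were called higher. Krt8, Krt18 and Apoa1 were not called, and Ttr had too few counts to be tested. The 6 leukocyte markers summed to 0.45 to 0.86 TPM, with Cd3e at 0, and the 3 endothelial markers to 0.12 to 0.48 TPM, with Cdh5 at 0. The 4 fibroblast and stellate markers summed to between 1032 and 1234 TPM, nearly all of it from Dcn, with Lrat at 0. Both KO sums, 1229 and 1234, were above the NC sums of 1032 and 1094. Col1a1, at 0.10 and 0.07 TPM in NC against 0.59 and 0.59 in KO, was called higher (log2 fold change 2.73, edgeR adjusted p = 3.04e-05). The part of these marker differences in the results below was not tested. In bulk RNA, fewer cells with a transcript and less of it per cell cannot be told apart.

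All 78 genes passed the filter on low counts, and 42 were lower in KO while none were higher at an edgeR quasi-likelihood adjusted p under 0.05 (Benjamini-Hochberg over 12510 genes). Over all genes tested, 18.2% were lower and 19.7% were higher. At an unadjusted p under 0.05, 49 members were lower, beside 22.8% of all genes tested. The count rested in part on 1 library and on the tool: without NC 1, 24 members were lower, where 12.8% of all genes were, and DESeq2 called 27 lower, where 12.4% of all genes were. No member was higher in either. The median log2 fold change of the members was −0.34, beside −0.0037 over all genes tested. The differences were small in size: the members ran from −0.78 (Mrps14) to 0.18 (Mrpl45), the middle 50% lay between −0.48 and −0.19, and none reached a 2-fold change. The log2 fold change was negative for 74 members and positive for 4, where 50.45% of all genes tested were negative.

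The libraries themselves show the same order. In CPM (counts scaled to library size), both KO libraries lay below both NC libraries for 63 members, above them for 2, and overlapped for 13. Of all 12510 genes tested, both KO libraries lay below both NC libraries for 4336 (34.7%), above them for 4348, and overlapped for 3826. Each of the 42 genes called lower was free of overlap in CPM. The calls rest on the same counts, so this order is no separate support for them. The cytosolic ribosomal protein genes, which build the ribosome of the cell body, and the nuclear subunit genes of respiratory complex I stood in the same fit at other values. Of 77 cytosolic ribosomal protein genes, 14 were lower (18.2%) and 2 higher (2.6%), with a median of −0.086. Of 36 complex I subunit genes, 14 were lower (38.9%) and 1 was higher (2.8%), with a median of −0.24. The shares over all genes tested were 18.2% lower and 19.7% higher.

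**Figure D1:**
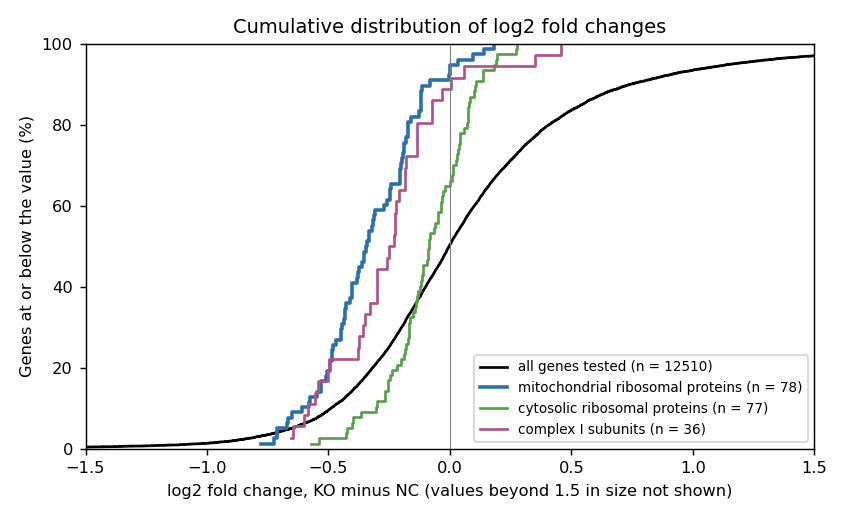
Cumulative distribution of log2 fold changes (x axis, KO minus NC) for all 12510 genes tested and for 3 gene families; the y axis is the share of genes at or below each value (%). The curve of the 78 mitochondrial ribosomal protein genes lies left of 0 for 74 genes, with its middle at −0.34, while that of the 77 cytosolic ribosomal protein genes crosses its middle at −0.086.

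Mitochondrial ribosomal protein genes are short, with a median annotated length of 1073 bases beside 2347 over all genes tested, and short genes as a class leaned lower in KO. Of the 3202 tested genes of at most 1500 bases, 23.7% were lower, with a median of −0.11. Among the 61 members of that length, 31 were lower and the median was −0.33. The 3141 short genes that are not members had a median of −0.10, with 728 lower and 386 higher. After the trend of fold change with gene length was removed from all genes, 30 members were lower and 1, Mrpl24, was higher (log2 fold change 0.24, adjusted p = 0.0367), against 19.0% of all genes lower, and the median of the members moved to −0.21. Within the members, the rank correlation of log2 fold change with length was 0.02, with GC content −0.02 and with log2 TPM 0.18, over 78 genes that share the same 4 libraries.

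Summed over all members, the level was 5337 and 5225 TPM in NC against 4787 and 4177 TPM in KO. Both KO sums were below both NC sums, and the KO mean was 15.1% lower, with 5281 ± 79.7 in NC against 4482 ± 431.7 in KO (SD, n = 2). The sums are given as a description, and no test of them is reported. The log2 ratio of the sums was −0.24, and it was −0.34 without KO 1 and −0.14 without KO 2. The small subunit summed to 1477 and 1491 TPM in NC against 1323 and 1177 in KO, a fall of 15.8% in the mean. The large subunit summed to 3861 and 3734 TPM in NC against 3464 and 3000 in KO, lower by 14.9%. Without Mrpl52, the member with the highest level, the sums were 5003, 4927, 4416 and 3877 TPM in the same order. On the CPM scale the sums were 3599 and 3361 in NC against 2910 and 2731 in KO, and the KO mean was 18.9% lower. Libraries of the same group were not alike: KO 2 lay below KO 1 for 70 of the 78 members in TPM and for 55 in CPM. NC 2 lay below NC 1 for 39 members in TPM and for 55 in CPM. Over all genes tested, KO 2 lay below KO 1 in CPM for 49.1%. That share was not computed for TPM or for the NC libraries.

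Of the 17 small-subunit genes with a bacterial counterpart, 9 were lower in KO and none were higher, with a median log2 fold change of −0.33. Mrps18b, a small-subunit protein of the S18 family, had 109 and 94.1 TPM in NC against 71.5 and 67.4 in KO. Both KO values were well below both NC values, and the log2 fold change was −0.58 (SE 0.11, edgeR adjusted p = 0.000103). Mrps21, whose level was the highest of the small subunit, had 321 and 340 TPM in NC against 334 and 276 in KO. In TPM, KO 1 lay between the NC values, and the difference was not called (−0.20, SE 0.10, adjusted p = 0.137). Mrps14, Mrps12 and Mrps6 were chosen after their values were seen, since they had the largest falls of the subunit. Mrps14, which lies in the head of the small subunit, had 15.1 and 21.4 TPM in NC against 12.5 and 11.9 in KO, for a log2 difference of −0.78 (SE 0.16, adjusted p = 0.000273). Mrps12, the counterpart of the bacterial protein in which streptomycin resistance arises, had 50.7 and 47.1 TPM in NC against 34.1 and 29.8 in KO, with a log2 fold change of −0.67 (SE 0.14). Mrps6 had 31.6 and 27.9 TPM in NC against 22.4 and 18.4 in KO, with a log2 fold change of −0.61 (SE 0.16). In all 3 both KO libraries were below both NC libraries. Mrps9, at the other end of the group, had 23.2 and 25.8 TPM in NC against 25 and 27.5 in KO, values that overlap (0.09, SE 0.12).

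Of the 10 genes listed with the small subunit and without a bacterial counterpart, 4 were lower and none were higher, with a median of −0.20. The 4 were Mrps34, Mrps25, Mrps36 and Mrps27, with log2 fold changes between −0.49 and −0.38. Mrps36, the most abundant of them per length, had 72.6 and 66.5 TPM in NC against 55.9 and 52.1 in KO, without overlap (−0.43, SE 0.13, adjusted p = 0.00804). Its symbol is a historical one, and its protein is now known as a part of the α-ketoglutarate dehydrogenase complex of the citric acid cycle. Because of its symbol, Mrps36 is still counted with the small subunit in the role groups, the sums and the figures. Mrps34, which is needed for the small subunit to assemble, had 47.7 and 52.0 TPM in NC against 41.1 and 33.5 in KO. The other 6 did not pass the test, and among them Mrps22 had 15.7 and 15.8 TPM in NC against 17.1 and 16.4 in KO.

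Of the 30 large-subunit genes with a bacterial counterpart, 13 were lower in KO and none were higher, with a median of −0.24. Mrpl17, which encodes a protein near the exit of the peptide tunnel, had the lowest p of all members. Its level was 273 and 208 TPM in NC against 150 and 121 in KO, so the higher KO library was still below the lower NC library. In CPM it had 85.7 ± 11.6 in NC against 51.7 ± 0.70 in KO (SD, n = 2), which is a log2 difference of −0.73 (SE 0.10, adjusted p = 3.48e-06). Mrpl3, which lines the base of the peptidyl transferase centre, had 32.6 and 38.6 TPM in NC against 24.5 and 19.9 in KO (−0.71, SE 0.12, adjusted p = 6.07e-05). Mrpl27, whose bacterial counterpart reaches towards the tRNA ends in that centre, had 67.1 and 66.5 TPM in NC against 45 and 43.2 in KO (−0.65, SE 0.13, adjusted p = 0.000208). Its replicates lay close together in each group, and the groups were far apart relative to that spread. Mrpl11, part of the stalk base where elongation factors dock, had 19.9 and 18.1 TPM in NC against 14.3 and 12.3 in KO (−0.58, SE 0.11, adjusted p = 0.000188). Mrpl12, the stalk protein itself, was lower as well, with 122 and 105 TPM in NC against 95.2 and 81.2 in KO (−0.43, SE 0.10); it is named here after its values were seen.

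Of the 21 large-subunit genes without a bacterial counterpart, 16 were lower and none were higher, with a median of −0.45. Mrpl54 had 146 and 135 TPM in NC against 107 and 73.4 in KO, a log2 difference of −0.71 (SE 0.13, edgeR adjusted p = 7.27e-05). The KO values differed from each other more than the NC values did, and both were below NC. Mrpl39 had 19.8 and 20 TPM in NC against 14.2 and 11.9 in KO (−0.67, SE 0.12, adjusted p = 6.00e-05). Mrpl37 had 103 and 112 TPM in NC against 82.6 and 78.6 in KO (−0.48, SE 0.092, adjusted p = 0.000165). In these genes, too, no KO library reached the lower NC library. Mrps30 and Mrps18a carry small-subunit names, but their proteins sit in the large subunit. Both were lower, Mrps30 with 24 and 26.3 TPM in NC against 19.6 and 18.7 in KO, and Mrps18a with 83.8 and 88.1 in NC against 80.2 and 64.7 in KO. The third S18-family gene, Mrps18c of the small subunit, had 38.3 and 38.6 TPM in NC against 30.6 and 30.0 in KO and missed the threshold (−0.36, SE 0.17, adjusted p = 0.0964). The lists split the S18 family, with Mrps18a placed without a bacterial counterpart and Mrps18b and Mrps18c with one. The split by counterpart is therefore uncertain for this family. Whether the 4 role groups differ from each other in their response was not tested.

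**Figure D2:**
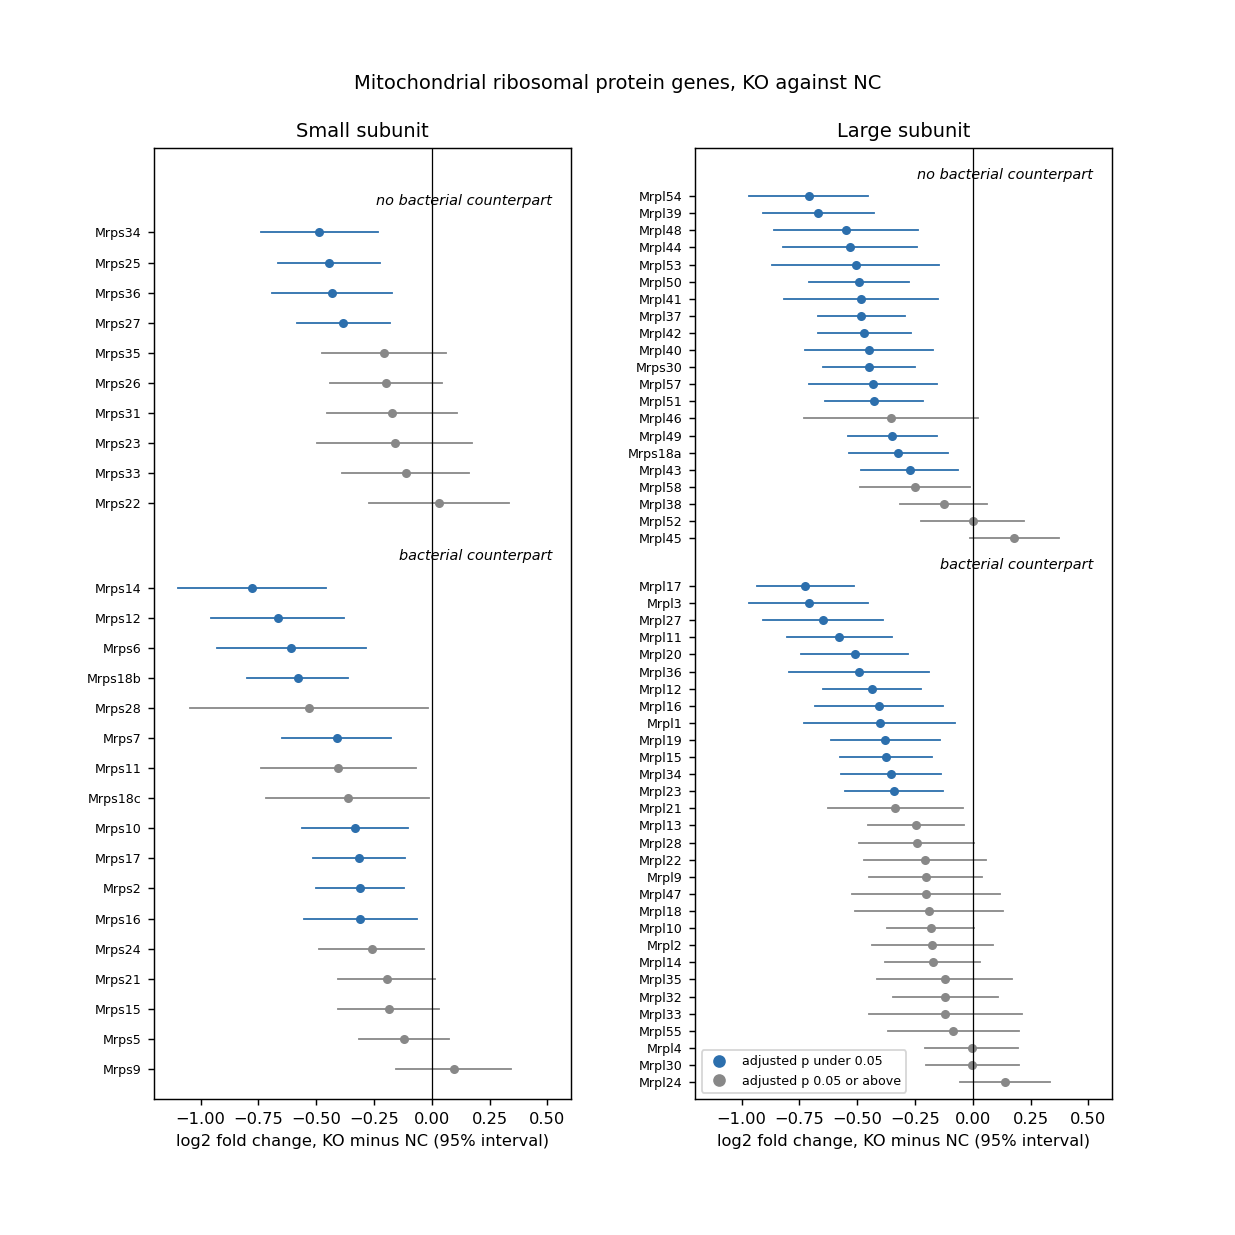
Log2 fold change (x axis, KO minus NC) of each of the 78 genes with its 95% interval, from the edgeR fit, split by subunit and by whether the protein has a bacterial counterpart; blue points passed an adjusted p of 0.05. All 42 blue points lie left of 0, and the 4 points right of 0 are grey.

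Some members lay close to 0. Mrpl52, the member with the highest TPM, had 334 and 298 TPM in NC against 371 and 300 in KO, and its CPM differed by a log2 fold change of −0.0005 (95% interval −0.22 to 0.22). Mrpl30 had 145 and 145 TPM in NC against 140 and 152 in KO (−0.0013, interval −0.20 to 0.20). Mrpl4 had 66.7 and 69.5 TPM in NC against 76.5 and 64.1 in KO (−0.005, interval −0.21 to 0.20). For these 3 genes the NC and KO libraries overlapped. They were named because their fold changes were nearest to 0. Mrpl45 and Mrpl24 were the members with both KO libraries above both NC libraries in CPM. Mrpl45, a membrane-facing protein that anchors the ribosome to the inner membrane, had 43.1 and 41.8 TPM in NC against 50.5 and 49.6 in KO (0.18, SE 0.093, adjusted p = 0.131). Mrpl24 had 73.7 and 88.7 TPM in NC against 98 and 92.1 in KO (0.14, SE 0.095, adjusted p = 0.264). Neither passed the test in the fit without a length correction.

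**Figure D3:**
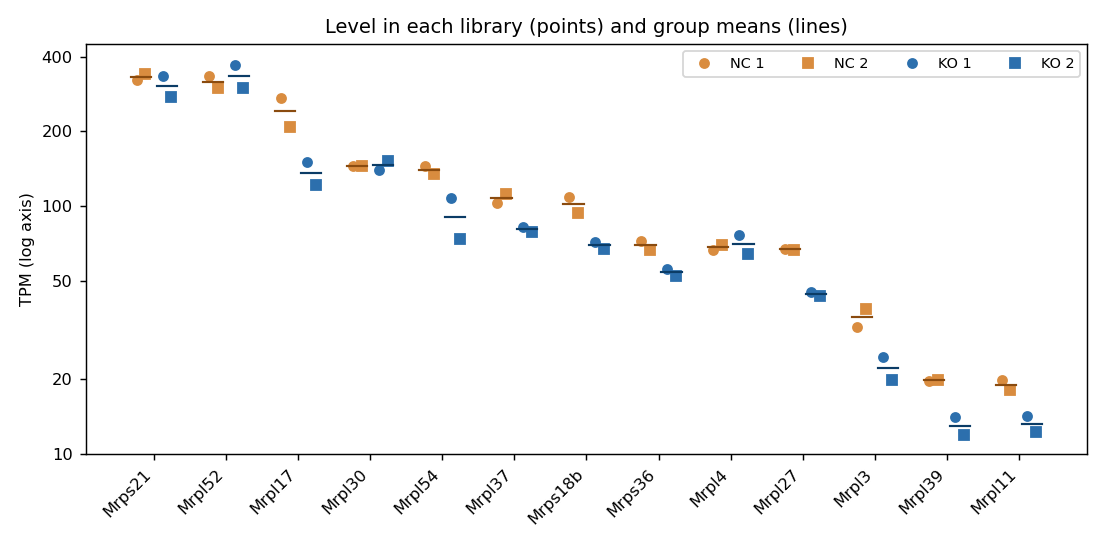
TPM (y axis, log scale) in each library for 13 genes named by rule, with circles for replicate 1, squares for replicate 2, orange for NC, blue for KO and short lines for the group means. Mrpl17, Mrpl54, Mrpl37, Mrps18b, Mrps36, Mrpl27, Mrpl3, Mrpl39 and Mrpl11 have both KO points below both NC points, while the points of Mrpl52, Mrpl30, Mrpl4 and Mrps21 overlap.

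Levels per length differed widely between members within the same cells. Mean TPM over the 4 libraries ran from 5.27 (Mrpl1) to 326 (Mrpl52), a 61.9-fold range, with a median of 42.0, although most of the encoded proteins are present once in each ribosome. Mrpl52, Mrps21 and Mrpl17 were the 3 highest. On the TPM scale the same comparison gave fewer calls: limma on log2(TPM + 1) found 12 members lower and none higher, where 5.52% of all genes were lower, and the 12 were all among the 42 from counts. The fold changes of both scales had a Pearson correlation of 0.933 across the 78 members, which are not independent of each other. The median on the TPM scale was −0.28, beside 0.06 over all genes. Both KO libraries were below both NC libraries in TPM for 49 members, beside 25.1% of all genes, and above for 3, beside 37.6% of all genes. Mrpl1 was the only one of the 42 that overlapped in TPM: it had 163 and 181 counts in NC against 130 and 146 in KO, but 5.27 and 5.30 TPM in NC against 5.41 and 5.09 in KO.

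Among the genes with the lowest p, Mrpl17 (ENSMUSG00000030879.10) lies on the minus strand of chromosome 7 of GRCm38 from 105803206 to 105811099, and Mrpl39 (ENSMUSG00000022889.7) on the minus strand of chromosome 16 from 84717576 to 84735742. Mrpl3 (ENSMUSG00000032563.16) lies on the plus strand of chromosome 9 from 105053239 to 105079888, where predicted transcripts on both strands overlap its exons. Mrps18b (ENSMUSG00000024436.16) lies on the minus strand of chromosome 17 from 35910379 to 35916389, and an antisense transcript overlaps it. Mrpl27 (ENSMUSG00000024414.13), on the plus strand of chromosome 11 from 94653767 to 94660089, overlaps the first exon of Eme1 on the other strand. Mrpl54, Mrpl37 and Mrpl11 overlap no other annotated exon. All members are annotated as protein coding.

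The genes lie on 17 chromosomes, and the falls were spread over most of them. All 3 members on chromosome 16 (Mrpl39, Mrpl40 and Mrps6) were lower, with a median of −0.61 beside −0.057 for all tested genes of that chromosome. On chromosome 19, 4 of 5 were lower, on chromosome 13 also 4 of 5, on chromosome 11 there were 3 of 11, and on chromosome 3 none of 5. Whether counting used strand is not given in the sources used here, so reads from overlapping genes may have been shared. Of 33 members whose exons overlap another annotated gene, 18 were lower with a median of −0.38, and of the 45 that overlap none, 24 were lower with a median of −0.32. Mrpl23, Mrpl48 and Mrps36 have annotated processed pseudogenes (Mrpl23-ps1, Mrpl48-ps and Mrps36-ps1 to ps3), and their counts are uncertain to that extent. Only pseudogenes named after a member were searched, so other members may have some under other names.

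Many mitochondrial ribosomal protein genes start back to back with another gene. GENCODE M21 places a protein-coding gene head to head within 1000 bases of the start of 33 members. Of 30 such neighbours that were tested and are not members, 8 were lower and none were higher, with a median of −0.15. Over all genes tested, 18.2% were lower and 19.7% were higher. Their 30 members included 19 that were lower, with a median of −0.42. Both genes of the pair were lower in 3 cases: Mrps18b with Ppp1r10, Mrpl57 with Ska3 and Mrpl49 with Fau. Mrps18c, Mrpl13, Mrpl47, Mrpl18 and Mrpl32 were the reverse, not called beside a neighbour that was lower (Helq, Mtbp, Ndufb5, Tcp1 and Psma2). The rank correlation of fold changes within the 30 pairs was 0.125. Among the 45 members with no such neighbour, 23 were lower. Mrps11 and Mrpl46 are each other's neighbour on chromosome 7, and their RefSeq promoter windows share 141 bases (78783040 to 78783180). Mrps11 had 27.1 and 22.1 TPM in NC against 20.4 and 22.4 in KO (−0.40, SE 0.16, adjusted p = 0.0519), and Mrpl46 had 18.0 and 13.1 TPM in NC against 14.7 and 10.7 in KO (−0.35, SE 0.18, adjusted p = 0.132). Both values were negative and neither gene passed the threshold.

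**Figure D4:**
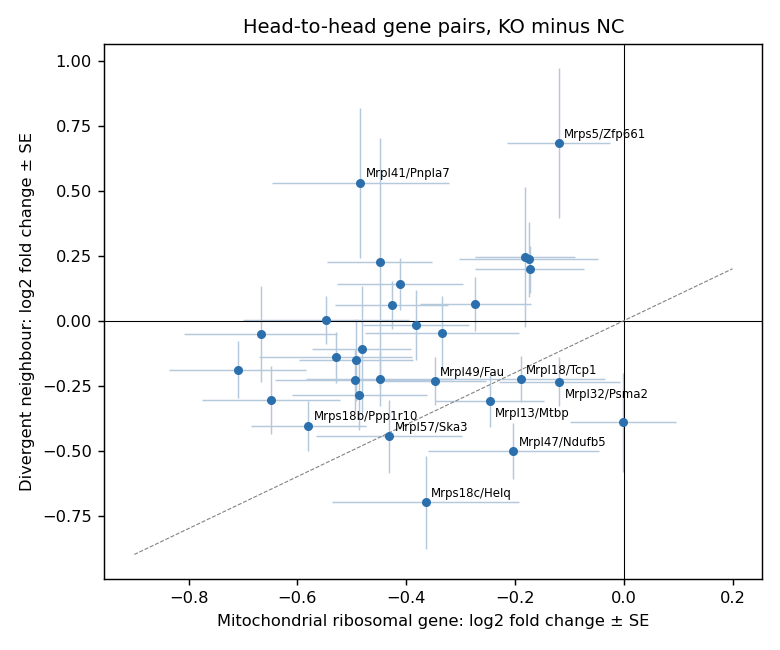
Log2 fold change (KO minus NC, ± SE) of 30 head-to-head pairs, with the mitochondrial ribosomal protein gene on the x axis and its neighbour, which is no member, on the y axis; the dashed line marks equal change. The members lie at or left of 0 in all pairs, with a median of −0.42, while the neighbours spread on both sides of 0 around a median of −0.15, and names mark neighbours called lower or beyond 0.5 in size.

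NRF1, the ETS factor GABP and YY1 are known activators of nuclear genes for mitochondrial proteins, so the promoters of the members were searched for their motifs. RefSeq (GRCm38.p6) gave a window of 250 bases before to 50 bases after the start for 69 of the 78 genes. The letters searched on both strands were CGCANGCG for NRF1, CCGGAAG for ETS factors and AAGATGGCG for YY1, and none of them is contained in another. The NRF1 letters were in the windows of 20 members (29.0%), beside 9.22% of all genes with a window, 19.8% of the tested genes and 8.21% of all windows of that length. The ETS letters were in 26 (37.7%), beside 9.93% of all genes, 21.3% of tested genes and 8.86% of windows. The YY1 letters were in 8 (11.6%), beside 1.64% of all genes, 3.80% of tested genes and 1.40% of windows. In all, 44 members held at least 1 of the 3 and 25 held none.

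Genes that were lower occurred both with and without the letters. Whether the letters go with the change was not tested, and some of the groups are small. Of the 20 members with the NRF1 letters, 10 were lower, and of the 49 without them, 28 were. For the ETS letters it was 14 of 26 with and 24 of 43 without, and for YY1 it was 5 of 8 with and 33 of 61 without. The medians were −0.24 with and −0.35 without the NRF1 letters, −0.33 and −0.35 for ETS, and −0.39 and −0.33 for YY1. A match is a description of the letters and not a binding site. The bases before the RefSeq start that lie in no annotated exon are printed for 2 genes of the lower group and 2 genes near or above 0. These genes are examples and do not stand for their groups. Each stretch is read 5′ to 3′ on the gene's strand, with matches in capitals. Mrpl17 was lower and held both NRF1 and ETS letters, and Mrpl11 was lower and held none of the letters in its window. Mrpl52 was near 0 and held ETS letters on the reverse strand, and Mrpl45 had a positive fold change and held the NRF1 letters at 2 places in this stretch. Mrpl24, not printed, also had a positive fold change and held none of the letters in its window.
Mrpl17 (chr7:105811100-105811337, minus strand): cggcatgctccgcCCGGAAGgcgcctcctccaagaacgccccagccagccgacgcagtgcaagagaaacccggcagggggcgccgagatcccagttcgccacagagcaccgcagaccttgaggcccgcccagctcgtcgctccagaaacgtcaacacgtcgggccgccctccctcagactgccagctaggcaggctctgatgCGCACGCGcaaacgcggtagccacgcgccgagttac
Mrpl11 (chr19:4962056-4962146, plus strand): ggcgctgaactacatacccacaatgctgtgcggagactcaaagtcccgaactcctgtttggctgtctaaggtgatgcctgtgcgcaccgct
Mrpl52 (chr14:54426659-54426908, plus strand): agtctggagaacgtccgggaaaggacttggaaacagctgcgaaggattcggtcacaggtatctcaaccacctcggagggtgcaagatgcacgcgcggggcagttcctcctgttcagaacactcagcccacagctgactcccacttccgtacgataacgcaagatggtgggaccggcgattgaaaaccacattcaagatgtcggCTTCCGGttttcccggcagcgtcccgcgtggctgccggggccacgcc
Mrpl45 (chr11:97315466-97315715, plus strand): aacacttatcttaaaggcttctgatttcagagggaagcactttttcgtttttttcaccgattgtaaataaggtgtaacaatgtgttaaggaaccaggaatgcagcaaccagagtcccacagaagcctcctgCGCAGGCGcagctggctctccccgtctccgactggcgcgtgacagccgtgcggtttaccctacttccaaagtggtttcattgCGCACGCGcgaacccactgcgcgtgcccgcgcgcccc

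The proteins of the mitochondrial ribosome that go by other symbols were divided. Chchd1 had 60.8 and 65.8 TPM in NC against 46.5 and 45.3 in KO (log2 fold change −0.53, SE 0.14, edgeR adjusted p = 0.00302), and Gadd45gip1 had 25.6 and 31.3 in NC against 24.8 and 19.6 in KO (−0.42, SE 0.11). The other 3 of 5 were not called: Dap3, a guanine nucleotide-binding protein of the small subunit, had 83.9 and 85.7 TPM in NC against 87.8 and 89.8 in KO, and Ptcd3 and Aurkaip1 had log2 fold changes of −0.01 and −0.05. Of 25 tested genes for assembly of the ribosome and modification of its rRNA, 10 were lower and none were higher, with a median of −0.31. That is 40.0% lower, beside 18.2% of all genes tested. Fastkd2, an RNA-binding protein of the mitochondrial RNA granule needed for large-subunit assembly, had 16.9 and 17.0 TPM in NC against 10.2 and 10.7 in KO (−0.96, SE 0.12, adjusted p = 5.76e-07). Rcc1l, an RCC1-family protein that acts in assembly of these ribosomes, had 13.5 and 10.1 TPM in NC against 4.54 and 5.79 in KO, more than 2-fold lower (−1.18, SE 0.16, adjusted p = 1.67e-06). Trub2, a pseudouridine synthase, fell by 0.77 on the log2 scale (SE 0.14).

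Among 15 translation factors and their partners, 5 were lower (33.3%, beside 18.2% of all genes tested) and none were higher, with a median of −0.22. Gfm1, the elongation factor that moves the ribosome along the message, had 15.1 and 17.8 TPM in NC against 10.9 and 8.61 in KO (−0.70, SE 0.13, adjusted p = 0.000137). Tufm, which brings charged tRNAs to the ribosome, had 140 and 142 TPM in NC against 123 and 105 in KO (−0.41, SE 0.097, adjusted p = 0.00166). Lrpprc, which stabilises mitochondrial messages, and Oxa1l, which inserts the new proteins into the inner membrane, changed by −0.50 and −0.42. Of 17 mitochondrial tRNA synthetases, 3 were lower (Yars2, Lars2 and Ears2, between −0.85 and −0.36) and none were higher. That share is close to the background of all genes, and the median was −0.05. None of 10 tested genes for mitochondrial transcription and DNA maintenance was called in either direction in the edgeR fit.

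The genes of the transcription factors whose motifs were searched were not called in either direction. Nrf1 had 16.1 and 16.6 TPM in NC against 18.9 and 16.3 in KO (−0.01, SE 0.11). Yy1 had 37.7 and 39.2 in NC against 40.6 and 40.9 in KO (−0.01, SE 0.092). Gabpa had a log2 fold change of −0.12 (SE 0.10). Gabpb1, also listed, was just above the threshold (−0.27, SE 0.11, edgeR adjusted p = 0.0529). Its KO libraries lay below both NC libraries in CPM but overlapped them in TPM. Pprc1 and Ppargc1a, coactivators of nuclear mitochondrial genes, were the 2 lower of 9 listed regulators (22.2%, beside 18.2% of all genes tested). None of the 9 were higher. Ppargc1b was the 1 with a positive fold change and was not called (0.54, SE 0.24, edgeR adjusted p = 0.0803). Both KO libraries lay above both NC libraries for Ppargc1b, with 1.45 and 1.18 TPM in NC against 1.98 and 1.97 in KO. Pprc1 had 57.5 and 53.9 TPM in NC against 45.5 and 38.3 in KO (−0.59, SE 0.098, adjusted p = 3.21e-05), and Ppargc1a had 2.43 and 2.68 in NC against 1.84 and 1.84 in KO (−0.85, SE 0.20, adjusted p = 0.00106). Myc, which drives many genes of ribosome formation, had 198 and 236 TPM in NC against 215 and 168 in KO and did not pass the threshold (−0.24, SE 0.099, adjusted p = 0.0593).

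The RNAs of the ribosome that mitochondrial DNA encodes went the other way. The small-subunit rRNA mt-Rnr1 had 402 and 372 TPM in NC against 570 and 609 in KO (log2 fold change 0.55, SE 0.096, edgeR adjusted p = 5.86e-05). The large-subunit rRNA mt-Rnr2 had 494 and 469 TPM in NC against 791 and 890 in KO (0.75, SE 0.099, adjusted p = 1.53e-06). Both KO libraries were above both NC libraries for each rRNA, while the summed RNA of the protein genes of both subunits was below. How rRNA was removed or messages selected before library preparation is not given in the sources used here, so the level of an rRNA in these libraries may not be its level in the cells. Of 13 mitochondrially encoded messages, 4 were lower and 3 were higher, with a median of −0.08. Among them mt-Nd6 was higher (0.68, SE 0.12) and mt-Cytb was lower (−0.34, SE 0.11). The libraries overlapped for 3 of the called messages, mt-Atp6 and mt-Nd4l, called lower, and mt-Co2, called higher. For mt-Atp6 they were at 699 and 358 TPM in NC against 466 and 212 in KO (−0.73, SE 0.22).

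**Figure D5:**
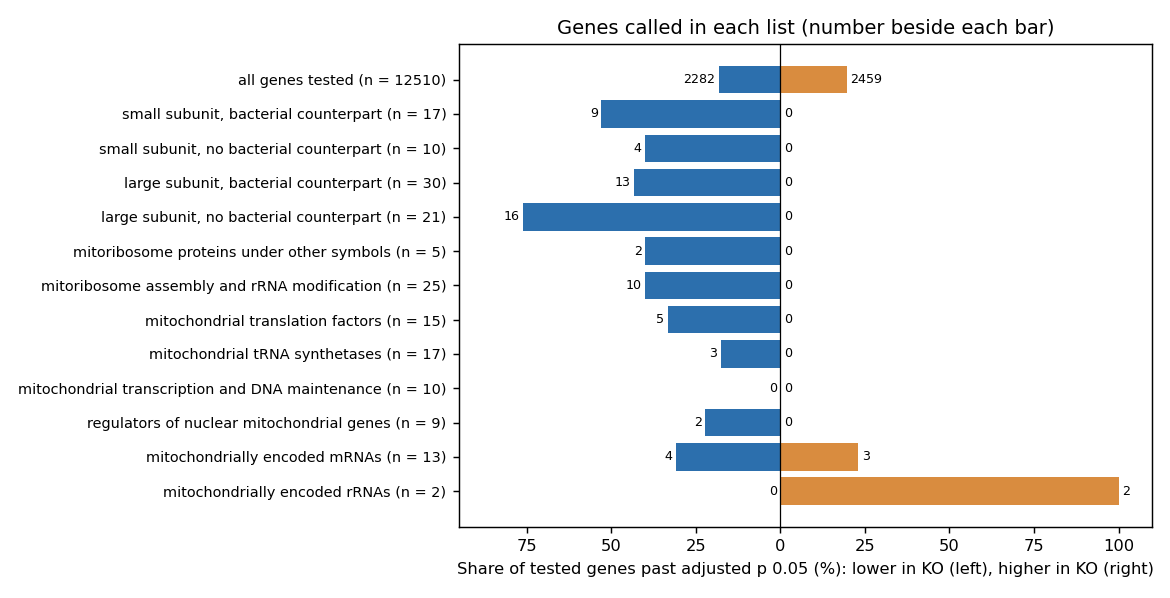
Share of tested genes (x axis, %) that passed an adjusted p of 0.05 in the edgeR fit, lower in KO to the left and higher to the right, for all genes tested, the 4 role groups of mitochondrial ribosomal protein genes and the other lists of mitochondrial translation; numbers beside the bars are genes. No protein list of nuclear genes has a bar to the right, and both mitochondrially encoded rRNAs lie to the right.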

How the data were processed

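The authors' files hold 1 row per gene and 1 file per sample. Expected counts are the authors' estimated read counts per gene, not normalised, and TPM is their length-scaled value, per the file headers, whose columns are those of RSEM. The deposited FPKM was not used. FastQC, STAR, RSEM and DESeq2 and the builds GRCm38 and mm10 are named in the submitters' processing notes. The annotation release and the strand setting are not given in the sources used here. A directional kit was used per the labels' protocols.

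Expected counts were rounded to whole numbers. Genes were kept by filterByExpr (12510 genes) and compared with edgeR 4.0.16 (R 4.3.3; TMM factors 0.981 to 1.02; glmQLFit and glmQLFTest, group as the only term, Benjamini-Hochberg over all genes tested, prior degrees of freedom 25.8). SEs and 95% intervals cover counting error and the spread shared across genes. TPM was tested with limma 3.58.1 on log2(TPM + 1). CPM is the count scaled to the TMM-adjusted library size. IDs were matched to GENCODE M21 (GRCm38) without version numbers for 54809 of 54838 genes and for all 78 members. Lowess trends over length or GC content gave 2 alternatives, that for GC content chosen after seeing the data, and others changed the scaling, the filter, the tool, the pseudocount or left out a library.

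Named members are the up to 8 with the lowest p in each direction (0 were higher), the highest TPM in each of 4 role groups and the 3 nearest to 0; other lists give up to 3 with the lowest p, and any other gene was named after its values were seen. Roles and lists come from general knowledge. The members and lists were chosen with earlier results of these data known, so no test of a list is reported.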

Additional observations from a re-analysis of the deposited data

How the results depend on the processing

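Under 15 alternatives, all 42 genes called lower kept a negative fold change, 65 of the 78 members were negative in each one, and 9 were called lower in each one except the TPM fit without a filter (Mrpl17, Mrpl3, Mrpl54, Mrpl39, Mrps12, Mrpl27, Mrps18b, Mrpl37 and Mrpl42). The number lower was 27 with DESeq2, 12 with limma on log2(TPM + 0.1), 12 on log2(TPM + 1) and 0 on log2(TPM + 1) without a filter, where 32 members had an unadjusted p under 0.05 and no gene of 20640 was called. The share of all genes lower was 12.4% with DESeq2. Leaving out 1 library gave 24 (without NC 1, 12.8% of all genes) to 46 (without KO 1, 17.0% of all genes), and the lone sample was then assumed to vary like the other group. With the replicate number as a block, 47 were lower (19.3% of all genes). Deviations of same-numbered samples from their group means correlated at −0.01 over all genes tested. With 2 samples in each group, that value cannot show whether same-numbered samples share more than the number. Removing the length trend left 30 lower and 1 higher and moved the median to −0.21. The log2 ratio of summed TPM was −0.34 without KO 1 and −0.14 without KO 2. The cause of these shifts was not tested. The 15 alternatives reuse the same libraries, so they are not independent of the main fit. How many of all genes tested kept their sign or their call across them was not computed.

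Direction changed only in members that were not called. With the length trend removed, values turned positive for Mrpl33 (0.0424), Mrps33 (0.035), Mrpl55 (0.0405), Mrpl4 (0.0785), Mrpl30 (0.141) and Mrpl52 (0.166). With library totals only they were 0.0281 for Mrpl4, 0.0306 for Mrpl30 and 0.0333 for Mrpl52, with the GC trend removed 0.011 for Mrpl30, and with DESeq2's size factors 0.0006 for Mrpl52. The TPM fits gave, with pseudocounts 0.1 and 1, 0.116 and 0.1136 for Mrpl32, 0.022 and 0.0216 for Mrps33, 0.0411 and 0.0407 for Mrpl4, 0.0105 with both for Mrpl30, and 0.0794 and 0.0792 for Mrpl52, the second of each also without a filter. Leaving out 1 library gave −0.49 to 0.0571 for Mrpl18, −0.26 to 0.0044 for Mrpl35, −0.33 to 0.0976 for Mrpl33, −0.22 to 0.0662 for Mrpl55, −0.10 to 0.0837 for Mrpl4, −0.0509 to 0.0442 for Mrpl30, −0.14 to 0.14 for Mrpl52, −0.0076 to 0.0625 for Mrps22 and −0.0163 to 0.19 for Mrps9. Mrps28, with the fewest counts (45 to 74 in a library), had the largest SE, 0.25.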
